A study of Homo sapiens with 40 samples.

Results

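The genes that carry and restrain the interferon signal were examined in EndoC-βH3, a line of human pancreatic beta-like cells, before and after senescence, through the histone mark H3K27ac and the DNA-binding protein CTCF. The 9 genes were JAK1, STAT2, IRF9, IRF1, IRF2, IRF5, IRF7, SOCS1 and SOCS3, out of 20020 protein-coding genes in GENCODE 44. They were chosen by name, with earlier results of these data known. Their peaks were those within 2 kb of any of their annotated transcript starts (start-site peaks), those elsewhere in the annotated gene (gene-body peaks), and those whose nearest protein-coding start within 100 kb was theirs (distal peaks). This gave 22 of 51489 H3K27ac peaks and 20 of 51457 CTCF peaks. H3K27ac marks active promoters and enhancers, and CTCF shapes chromatin loops and also binds at many promoters.

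Chromatin immunoprecipitation sequencing compared non-senescent cells, labelled as control, with cells made senescent by 4-hydroxytamoxifen (4-OHT) for 3 weeks. All carried the genotype label WT and equal numbers of cells went into each sample. H3K27ac and CTCF each had 3 non-senescent and 3 senescent libraries. H3K4me1, which with H3K27ac defined the listed enhancers, and the retinoblastoma protein Rb had 2 and 2, and every library had its own input, which made 40 libraries. The study describes the cells as derived from a fetal pancreas and immortalized with SV40 large T antigen and hTERT, and 4-OHT activates a CreER recombinase that removes these genes. Both states therefore belong to a single line, and the loss of the transgenes, the drug and senescence cannot be told apart. No interferon was listed among the treatments of these samples. The labels do not say that replicates were separate cultures, so every p-value measures only the spread between libraries.

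Interferons signal through receptor chains bound to JAK family kinases, which phosphorylate STAT proteins. STAT2 and IRF9 are subunits of ISGF3, which binds the interferon-stimulated response element (ISRE), whereas STAT dimers bind the gamma-activated site (GAS). SOCS proteins are induced by this signal and shut the kinases down, and in beta cells the pathway is best known for raising HLA class I on cells under immune attack.

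Promoter sequences were read from RefSeq (GRCh38.p14), where 7 of the 9 genes matched and IRF2 and IRF7 did not. The 250 bases upstream of the start are shown for 4 genes, because their start sites hold the H3K27ac or CTCF peaks that passed the adjusted p described below (IRF9, SOCS1, SOCS3) or, for IRF1, a GAS match under an H3K27ac peak with a log2 fold change near 0. Capitals mark matches, on either strand, to an ISRE (GAAA and GAAA with any 2 bases between), a shorter IRF core (GAANNGAAA), a GAS (TTCNNNGAA) or a CTCF core (CC, any 3 bases, AG, any 2 bases, GGC). The regions are chr14:24161015-24161264 for IRF9 (plus strand), and, on the minus strand, chr5:132490774-132491023 for IRF1, chr16:11256205-11256454 for SOCS1 and chr17:78360926-78361175 for SOCS3, each written 5′ to 3′ along the gene.
IRF9: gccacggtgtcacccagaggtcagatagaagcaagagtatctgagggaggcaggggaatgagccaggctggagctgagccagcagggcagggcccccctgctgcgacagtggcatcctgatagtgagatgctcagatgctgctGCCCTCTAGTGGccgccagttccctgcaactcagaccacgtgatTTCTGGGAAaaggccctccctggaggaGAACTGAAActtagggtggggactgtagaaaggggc
IRF1: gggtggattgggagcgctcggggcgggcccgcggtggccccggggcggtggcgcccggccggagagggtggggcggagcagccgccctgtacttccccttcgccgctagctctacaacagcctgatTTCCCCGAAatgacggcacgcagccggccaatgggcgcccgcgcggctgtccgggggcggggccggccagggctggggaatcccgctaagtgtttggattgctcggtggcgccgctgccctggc
SOCS1: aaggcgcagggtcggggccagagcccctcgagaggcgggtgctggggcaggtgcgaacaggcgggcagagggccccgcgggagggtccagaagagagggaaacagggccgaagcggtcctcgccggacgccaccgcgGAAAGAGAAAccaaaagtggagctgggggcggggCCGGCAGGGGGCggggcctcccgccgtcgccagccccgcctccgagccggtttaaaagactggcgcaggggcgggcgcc
SOCS3: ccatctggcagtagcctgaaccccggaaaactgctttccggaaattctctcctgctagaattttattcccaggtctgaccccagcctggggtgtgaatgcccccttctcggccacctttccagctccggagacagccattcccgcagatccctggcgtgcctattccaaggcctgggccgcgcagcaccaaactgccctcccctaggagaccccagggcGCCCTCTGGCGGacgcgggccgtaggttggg

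The IRF9 promoter held an IRF core match at -36 to -28, a GAS match at -63 to -55 and a CTCF core match at -107 to -96, counted from the base before the start. The SOCS1 promoter held an ISRE match at -113 to -104 and a CTCF core match at -79 to -68. IRF1 held a GAS match at -124 to -116, and SOCS3 a CTCF core match at -31 to -20. None of these matches overlapped in the 4 sequences. Among all 35116 promoters in the table, the same 250 bases held an ISRE match in 3.02%, an IRF core match in 6.56%, a GAS match in 6.57% and a CTCF core match in 8.9%. The 250 bases upstream of the canonical starts of JAK1 and STAT2, also under H3K27ac peaks, held none of these letters. An alternative start of IRF5, 2743 bp from its canonical start, held an IRF core match at -33 to -25. IRF5 had no peak of either mark by the rule. The motifs were chosen after the sequences had been seen, and a match describes letters only.

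H3K27ac was present at the start sites of 6 of the 9 genes, and none of their 8 start-site peaks was called changed. A peak was called when its adjusted p was under 0.05 and it differed more than 1.5-fold in the authors' deposited DESeq2 table, and 15.9% of all H3K27ac peaks at protein-coding start sites met both. On the adjusted p alone 2 of the 8 passed, IRF9 upward and SOCS1 downward, against 41.6% of all start-site peaks. At an unadjusted p under 0.05 the same count was 1 higher and 1 lower. The median log2 fold change, senescent over non-senescent, was -0.0076 over the 8 peaks and 0.039 over all 16954 start-site peaks. In 6 of the 8, the 95% interval lay wholly within 0.585 of 0 on the log2 scale, the size of a 1.5-fold change, as it did in 55.1% of all start-site peaks. Values per library are not in the tables, so each peak is described by its mean normalized count over the 6 libraries, its log2 fold change and the standard error (SE) of that change.

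JAK1, the kinase shared by the receptors for type I, II and III interferons, had an H3K27ac peak at each of its main groups of starts. The peak over the canonical start (chr1:64965128-64967741, covering an exon) had a mean of 493 normalized counts and a log2 fold change of 0.19 (SE 0.11, adjusted p = 0.16, DESeq2 Wald test). The peak over the upstream starts (chr1:65066049-65069091), where the longest transcripts begin, had 548 counts and a log2 fold change of 0.063 (SE 0.11, adjusted p = 0.70). Both intervals excluded a 1.5-fold change in either direction.

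These ISGF3 subunits were described next at their start sites. At STAT2, which recruits the transcription machinery for the complex, the peak (chr12:56359343-56361432, shared with the start of APOF) had 264 counts and a log2 fold change of -0.055 (SE 0.13, adjusted p = 0.76), with an interval from -0.31 to 0.20. At IRF9, the DNA-recognition subunit, the peak (chr14:24159411-24162584) was 1.37-fold higher in senescent cells, a log2 fold change of 0.46 (SE 0.14, 95% interval 0.17 to 0.74, adjusted p = 0.0060). With its mean of 220 counts, this fold corresponds to about 186 counts in non-senescent and 255 in senescent libraries. The IRF9 peak spans the bases printed above, and it also covers exons of the neighbouring gene RNF31, a subunit of the linear ubiquitin ligase, and of a readthrough gene, so the mark there cannot be given to IRF9 alone. Values were also recomputed after the median trend of fold change with GC content was removed, and after centring on the peaks with the highest counts. The IRF9 peak stayed below the fold-change threshold in each, and its log2 fold change was 0.48 (adjusted p = 0.0034) with the GC trend removed and 0.40 (adjusted p = 0.019) when centred on high-count peaks.

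Among the IRF transcription factors, IRF1 and IRF2 carried H3K27ac and IRF5 and IRF7 did not. IRF1, an activator that interferon-gamma induces, had 369 counts over its canonical start (chr5:132489596-132491816, covering an exon and the GAS match) and a log2 fold change of -0.011 (SE 0.12, adjusted p = 0.95). A second IRF1 peak, centred at -5703 bp (chr5:132494722-132498230), over alternative starts and a listed enhancer of both states, had 544 counts and a log2 fold change of -0.13 (SE 0.093, adjusted p = 0.29). IRF2, which competes with IRF1 for the same sites, had the highest start-site peak of the 9 genes, with 1109 counts (chr4:184471376-184475837). Its log2 fold change of -0.0040 (SE 0.073, adjusted p = 0.97) had the narrowest interval of the 22, from -0.15 to 0.14. The start-site mark at these IRF genes therefore moved by less than 1.5-fold at the precision reached.

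IRF5 and IRF7, which act downstream of nucleic acid sensors to switch on interferon genes, had no H3K27ac peak by the rule. The nearest H3K27ac peak to the canonical IRF7 start lay 7484 bp away over the starts of CDHR5 and SCT, with 1025 counts and a log2 fold change of -0.16 (SE 0.092). For IRF5 it lay 73897 bp away at ATP6V1F, and for SOCS3 17888 bp away at PGS1. A gene with no peak in the table was not tested, and its level below the peak caller's limit is not known.

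SOCS1, which binds and inhibits the JAK kinases, had a start-site H3K27ac peak of 142 counts (chr16:11255460-11257137, covering its start and part of an exon, within an intron of RMI2). Its level was 0.731-fold in senescent cells, a log2 fold change of -0.45 (SE 0.19, 95% interval -0.83 to -0.078, adjusted p = 0.046), corresponding to about 164 counts in non-senescent and 120 in senescent libraries. The peak had a GC content of 72.1%, and with the GC trend of H3K27ac removed its log2 fold change was -0.26 (adjusted p = 0.29). At so high a GC content that trend was held at its end value of -0.20. Centring gave -0.51 (adjusted p = 0.022). SOCS3, which restrains receptors that signal through STAT3, had no H3K27ac peak by the rule.

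**Figure D1:**
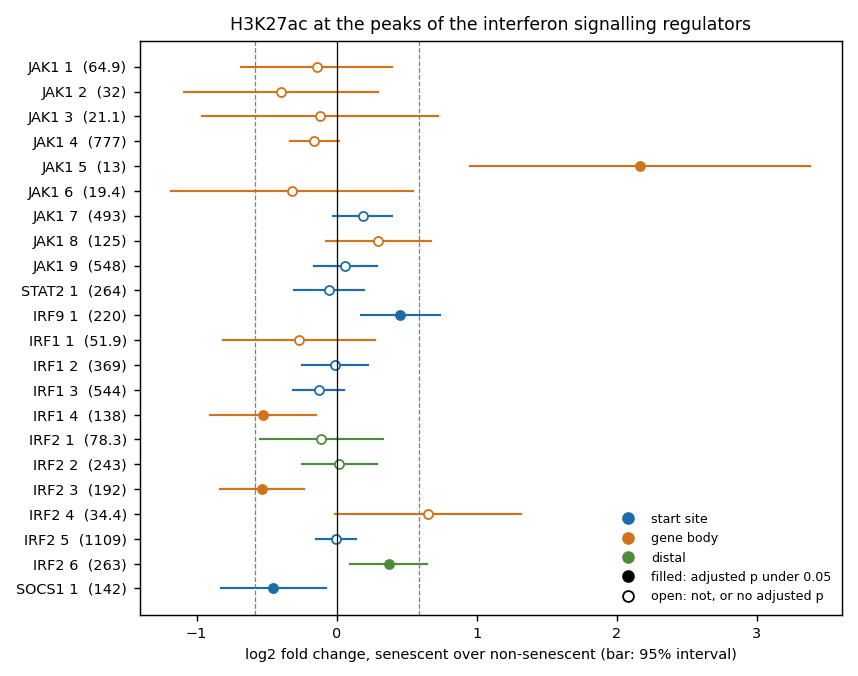
H3K27ac at the 22 peaks, numbered within each gene along the chromosome, with the mean normalized count in brackets. Points are log2 fold changes of senescent over non-senescent cells (3 and 3 libraries), bars 95% intervals, colours the peak class, and dashed lines a 1.5-fold change. Filled points passed an adjusted p of 0.05, and JAK1 5 alone also passed the fold-change threshold.

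Per kb of peak, so that genes can be compared, start-site H3K27ac ran from 249 mean normalized counts per kb at IRF2 through 189 and 180 at the canonical and upstream JAK1 starts, 166 and 155 at the IRF1 starts and 127 at STAT2 to 84.6 at SOCS1 and 69.5 at IRF9. The IRF2 level was above that of 80.3% of protein-coding start-site peaks, STAT2 above 48.3%, SOCS1 above 33.4% and IRF9 above 27.2%. The genes with the 2 lowest levels were those whose start-site peaks passed the adjusted p. The spread of a level between libraries is not given, so neighbours in this order are not said to differ.

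Over all 22 H3K27ac peaks, 1 was gained and 0 were lost in the DESeq2 table, against 22.6% called in either direction among all peaks. On the adjusted p alone 3 were higher and 3 lower, together 6 of 22, against 39.2% of all peaks, and the counts at an unadjusted p under 0.05 were also 3 and 3. The median log2 fold change was -0.082, against 0.0075 over all peaks. In 11 of the 22 the log2 fold change was smaller than 0.2 in either direction.

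The gained peak was a weak site inside JAK1. JAK1 5 (chr1:64921169-64921668) is 500 bp wide, lies in an intron, 45131 bp downstream of the canonical start, and is in no listed enhancer. Its log2 fold change was 2.17 (SE 0.62, 95% interval 0.95 to 3.38, adjusted p = 0.0020, DESeq2), the largest of the 22. Its mean was 13.0 normalized counts, corresponding to about 4.75 in non-senescent and 21.3 in senescent libraries, and 0.965% of H3K27ac peaks had a lower mean. Of the 5029 H3K27ac peaks with a mean under 20 counts, 4.26% were gained, and 2 of the JAK1 peaks were in that range. The call was lost in a test against a fold change of 1.5, and the peak is left out by a minimum of 50 counts.

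The other JAK1 gene-body peaks showed no call. The strongest, JAK1 4 (chr1:64914497-64918217), an intronic enhancer listed in both states, had 777 counts, the most after the IRF2 start site, and a log2 fold change of -0.16 (SE 0.088, adjusted p = 0.15). JAK1 8, in an intron between the start groups, overlapped an enhancer listed in non-senescent cells alone, although its own log2 fold change was 0.30 (SE 0.19, adjusted p = 0.22). The remaining 4 intronic peaks had 19.4 to 64.9 counts and log2 fold changes from -0.40 to -0.12, with intervals that all reached beyond a 1.5-fold change.

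Of the 7 H3K27ac peaks in listed enhancers, 2 passed the adjusted p, against 39.2% of all H3K27ac peaks. These 2, at IRF1 and IRF2, were lower in senescent cells and short of the fold-change threshold. The log2 fold changes of the others ran from -0.16 at JAK1 4 to 0.30 at JAK1 8. IRF1 4 (chr5:132500637-132502607), centred at -10849 bp from the canonical IRF1 start and inside the gene as GENCODE draws it, had 138 counts and a log2 fold change of -0.53 (SE 0.19, adjusted p = 0.021), a 0.694-fold level. IRF2 3 (chr4:184439265-184441687), in an IRF2 intron, had 192 counts and a log2 fold change of -0.53 (SE 0.15, adjusted p = 0.0024), a 0.692-fold level. Both lay in enhancers of both states, and both passed the fold-change threshold, as lost, once values were centred on high-count peaks (-0.59 for each, adjusted p = 0.0090 and 0.00063). The centring moves every H3K27ac value by 0.059, and with the GC trend removed they were -0.46 (adjusted p = 0.045) and -0.54 (adjusted p = 0.0022).

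Peaks assigned to IRF2 lay on both sides of 0. The interval of the intronic IRF2 3 peak, from -0.84 to -0.23, lay apart from that of the IRF2 start site. On the other side of the start, IRF2 6 (chr4:184536392-184538565), intergenic and centred at -62928 bp, had 263 counts and was 1.29-fold higher in senescent cells (log2 fold change 0.37, SE 0.14, 95% interval 0.099 to 0.65, adjusted p = 0.023). It was in no listed enhancer of either state, and centring took its adjusted p to 0.061. With a reach of 50 kb, or with the nearest start taken among all annotated genes, this peak is not assigned to IRF2, nor is the CTCF peak that overlaps it. IRF2 3 and IRF2 6 both passed the adjusted p, in opposite directions, so their intervals could not overlap. Differences between the IRF2 peaks were not tested. Downstream of the gene, IRF2 1 and IRF2 2 had log2 fold changes of -0.11 (SE 0.22) and 0.018 (SE 0.14), and inside it the weak IRF2 4 had 0.66 (SE 0.34, adjusted p = 0.11).

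At IRF1 the interval of IRF1 4, from -0.91 to -0.14, overlapped those of both IRF1 start-site peaks, and the difference between the upstream enhancer and the promoter was not tested. The last IRF1 peak, far downstream in an intron of the long gene model, had 51.9 counts and a log2 fold change of -0.27 (SE 0.28).

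**Figure D2:**
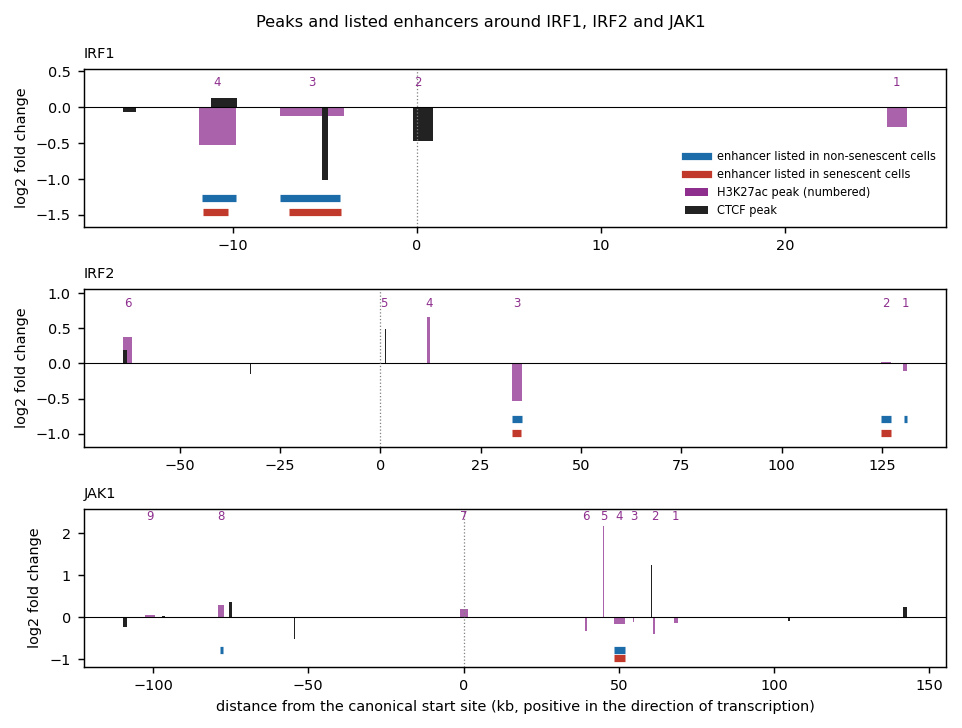
Peaks around IRF1, IRF2 and JAK1 by distance from the canonical start site in kb, positive along the direction of transcription. Bars give the log2 fold change of each H3K27ac peak (purple, numbered) and CTCF peak (black), and lines below mark enhancers listed in non-senescent (blue) and senescent (red) cells. IRF2 6 stands above 0 on the upstream side and IRF2 3 below 0 inside the gene, while the IRF2 start-site bar (5) is too small to see.

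The authors' enhancer lists placed 7 of 14886 non-senescent and 5 of 13076 senescent enhancers at these genes, all at JAK1, IRF1 and IRF2. The 5 senescent enhancers each overlapped an enhancer of the non-senescent list, as did 79.5% of all senescent enhancers. The 2 of 7 listed in non-senescent cells alone lay in JAK1 (chr1:65044058-65045079) and downstream of IRF2 (chr4:184343352-184344114), under peaks JAK1 8 and IRF2 1, and 29.4% of all non-senescent enhancers were listed in that state alone. Neither H3K27ac peak was called changed, and the value of JAK1 8 was above 0. The lists rest on the same H3K27ac libraries together with H3K4me1. None of the 2435 senescence-specific Rb regions lay at these genes.

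CTCF was next examined, with the study's limits of 0.2 for the adjusted p and 1.5 for the fold change. The study applied these limits to CTCF peaks that held the CTCF motif, whereas here they were applied to peaks with or without it. None of the 20 CTCF peaks was called, against 7.27% of the 39485 CTCF peaks that have an adjusted p, and 6 of the 20, all with means under 20 counts, have none in the deposited DESeq2 table. On the adjusted p alone 2 passed, at SOCS1 and SOCS3, both lower, against 13.3% of all CTCF peaks with an adjusted p, and the same count, 2 lower and 0 higher, held at an unadjusted p under 0.05. The median log2 fold change was -0.082, against -0.012 over all CTCF peaks. At start sites it was -0.28 over 8 peaks, against -0.14 over all 13840.

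SOCS1 carried the CTCF peak with the highest mean count of the 9 genes. That peak is 3447 bp wide, and per kb its level was 182, below the 206 at IRF9. The peak (chr16:11254569-11258015) covers most of the gene and its promoter, had 626 counts, more than 99.1% of CTCF peaks, and held 3 core matches, among them the match in the printed promoter. Its log2 fold change was -0.25 (SE 0.11, 95% interval -0.47 to -0.037, adjusted p = 0.18), inside the 1.5-fold limits. At SOCS3 the peak over the RefSeq start (chr17:78360290-78361593), which holds the printed core match, had 169 counts and a log2 fold change of -0.41 (SE 0.18, 95% interval -0.77 to -0.060, adjusted p = 0.18), a 0.751-fold level. Both peaks are rich in G and C, at 67.1% and 65.4%. With the GC trend of CTCF removed the SOCS1 value turned to 0.036 (adjusted p = 0.94) and the SOCS3 value became -0.12 (adjusted p = 0.85). Neither passed the adjusted p under that alternative. Both peaks lie at the GC-rich end of the trend, where it was held at its end value of -0.29. It was fitted on peaks outside start sites and listed enhancers, and whether it holds at start sites was not tested.

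At IRF9 the CTCF peak (chr14:24160390-24161936), over the printed core match, had 318 counts and a log2 fold change of 0.11 (SE 0.13, interval -0.15 to 0.37, adjusted p = 0.68), while H3K27ac over the same bases was higher. The strongest CTCF peak of JAK1, a distal peak in an intron of RAVER2, had 207 counts and a log2 fold change of 0.24 (SE 0.16, adjusted p = 0.42). That of IRF1, overlapping the upstream enhancer peak IRF1 4, had 126 counts and 0.13 (SE 0.19, adjusted p = 0.75). That of IRF2 overlapped the upstream H3K27ac peak IRF2 6, with 96.8 counts and 0.19 (SE 0.23, adjusted p = 0.67). IRF7 had a single CTCF peak, over exons at the end of the gene shared with PHRF1, with 37.1 counts and -0.31 (SE 0.39, adjusted p = 0.70). None of these 5 could be told from no change, and the interval excluded a 1.5-fold change at JAK1, IRF9 and IRF1. STAT2 and IRF5 had no CTCF peak by the rule.

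**Figure D3:**
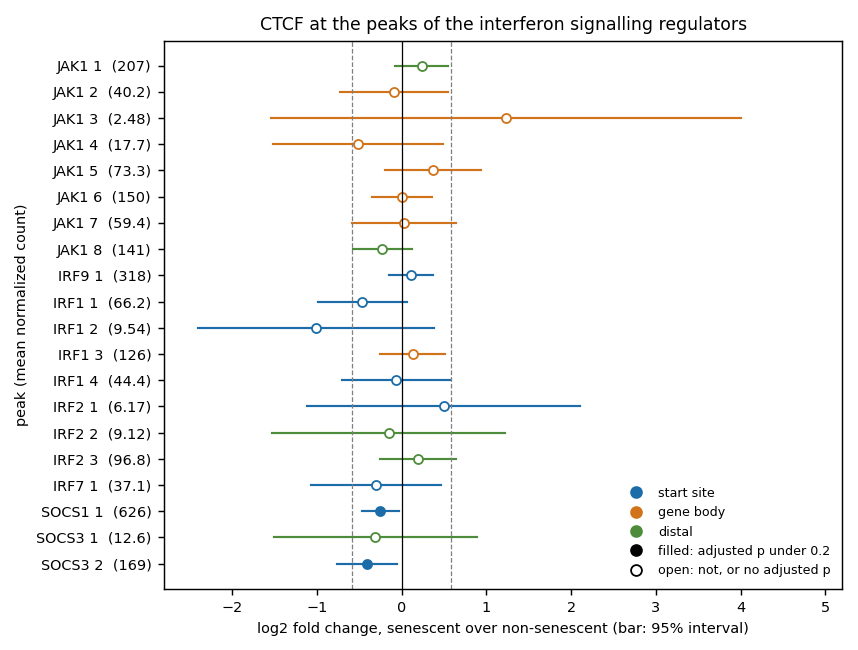
CTCF at the 20 peaks of the same genes, drawn as for H3K27ac. Filled points passed an adjusted p of 0.2, SOCS1 1 and SOCS3 2, and both points lie within the 1.5-fold lines. Wide bars belong to peaks with few counts.

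Core matches were found in 7 of the 20 CTCF peaks, against 38.3% of all CTCF peaks. H3K27ac and CTCF peaks overlapped at 7 places. At SOCS1 both marks were on the lower side, at -0.45 and -0.25, and at IRF9 the values were 0.46 for H3K27ac and 0.11 for CTCF. At the IRF1 enhancer they were on opposite sides, at -0.53 for H3K27ac and 0.13 for CTCF. At IRF2 6 they were 0.37 and 0.19. CTCF at the IRF1 canonical start was -0.46 (SE 0.27, adjusted p = 0.34) beside an H3K27ac value near 0, and the other 2 overlaps involved CTCF peaks with under 10 counts. With so few places no relation between the marks was computed.

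**Figure D4:**
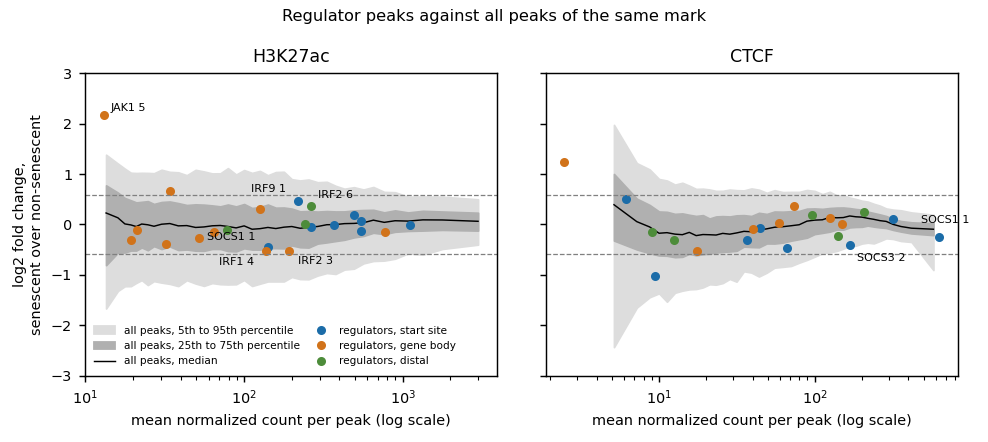
Log2 fold change against mean normalized count (log axis) for the regulator peaks, coloured by class, over the spread of all peaks of the same mark in 40 bins of equal size. The named points are those that passed the adjusted p alone. JAK1 5 lies above the 95th percentile of H3K27ac peaks of like count, while the named start-site and enhancer peaks lie within the band from the 5th to the 95th percentile.

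The other parts of the pathway were described by a list of 28 genes (receptor chains, kinases, STAT3, IRF factors, and negative regulators). A start-site H3K27ac peak was found for 26 of them, all but IRF4 and SOCS2, and at the strongest of each gene 1 was gained and 1 lost, 7.69% against the 15.9% called among all start-site peaks. Adjusted p alone gave 8 higher and 2 lower, 38.5% against 41.6%. Their median log2 fold change was 0.14, against 0.039 over all start-site peaks. The full set also holds weaker peaks and alternative starts, so these comparisons are not matched for count. IFNGR1, the ligand-binding chain of the interferon-gamma receptor, was gained with a log2 fold change of 0.60 (SE 0.094, adjusted p = 2.48e-09), at 523 counts. Its partner IFNGR2 had 0.32 (SE 0.11, adjusted p = 0.011), while the type I chains IFNAR1 and IFNAR2 had -0.13 (SE 0.090) and -0.025 (SE 0.14). STAT3, with 838 counts, had 0.56 (SE 0.093, adjusted p = 1.98e-08) and fell just short of the fold-change threshold. PIAS1, an inhibitor of STAT signalling, was lost with -0.595 (SE 0.078, adjusted p = 4.46e-13). Centring kept PIAS1 as lost and took IFNGR1 below the fold-change threshold.

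PTPN11, which encodes the phosphatase SHP2, was gained at an alternative start with a log2 fold change of 0.63 (SE 0.20, 105 counts, adjusted p = 0.0057), whereas its strongest start-site peak, with 703 counts, had -0.14 (SE 0.085, adjusted p = 0.18).

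Away from start sites the called peaks of the list went both ways. Gained distal peaks included those of SOCS6 (log2 fold change 1.24, SE 0.13) and TYK2 (0.71, SE 0.17). Gained gene-body peaks included those of SOCS5 (1.16, SE 0.11), PTPN1, a phosphatase of JAK2 and TYK2 (1.13, SE 0.17), and STAT3 (0.84, SE 0.34, with only 35.2 counts). PTPN1 also had a lost distal peak (-0.75, SE 0.17, 189 counts). The called peaks of IFNAR2 were all losses, at 4 distal peaks with log2 fold changes from -1.09 to -0.80. The strongest had 456 counts and the weakest 22.9. These peaks were assigned to IFNAR2 by nearest start alone, and its start-site peak had -0.025. Over all 85 H3K27ac peaks of the list 10 were gained and 7 lost, 20% of them, beside the 22.6% of all peaks.

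**Figure D5:**
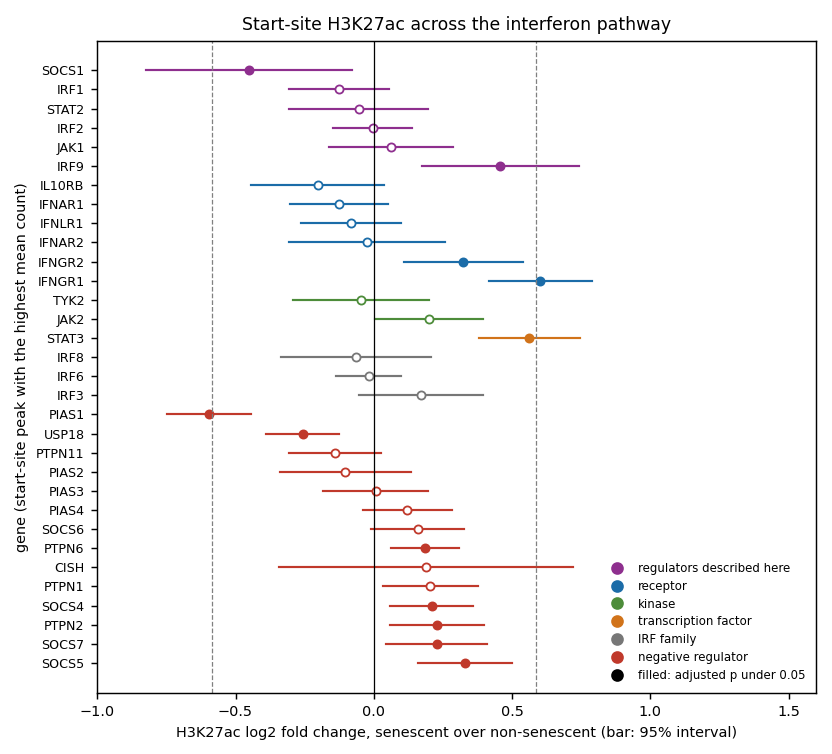
H3K27ac log2 fold change with its 95% interval at the strongest start-site peak of each gene, for 6 of the regulators (top, purple) and 26 other pathway genes coloured by role. Dashed lines mark a 1.5-fold change and filled points an adjusted p under 0.05. IFNGR1 and PIAS1 are the points beyond the dashed lines.

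The cells' identity and state were checked at other start sites. All 6 beta-cell markers had an H3K27ac peak, from 49.5 counts per kb at MAFA to 492 at PDX1. Of the markers of other cells, 2 of 4 for other islet cells, 1 of 2 for duct, 1 of 2 for acinar, 2 of 4 for immune cells, 1 of 2 for fibroblasts and 0 of 2 for endothelium had a peak, and GCG, PPY, SOX9, PTF1A, CD3E, MS4A1 and COL1A1 had none. The peaks of the other cells' markers ran from 50.3 counts per kb at SST to 298 at the acinar marker CPA1. CPA1 and the immune marker CD68 (238) stood above INS (230). The peaks of CD68, INS, NEUROD1 and KRT19 were each shared with the starts of other genes, IGF2 in the case of INS. Of the beta-cell markers none was called changed, while SST (-0.86), HHEX (-0.76), KRT19 (-0.74) and COL3A1 (-0.75) were called lost. Short of the fold-change threshold, INS (0.34), PDX1 (0.29), CPA1 (0.19) and CD68 (0.20) passed the adjusted p as higher. NEUROD1 (-0.13) passed it as lower. The part of any marker in the values of the interferon regulators was not tested. The proliferation marker MKI67 had a log2 fold change of -2.29 (SE 0.14) and the cell-cycle inhibitor CDKN1A 2.50 (SE 0.16). The median SE was 0.19 over all H3K27ac peaks and 0.29 over all CTCF peaks, so a change of 1.5-fold at a CTCF peak of typical strength is about 2 SE.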

How the data were processed

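ChIP-seq libraries of H3K27ac and CTCF (3 per state) had been trimmed, aligned to hg38 with Bowtie2 and compared by the authors with DESeq2, with peaks called against input. Tool versions were not given in the sources used here. The deposited tables hold only that comparison: the authors' mean signal (counts divided by size factors, averaged over the 6 libraries), the deposited log2 ratio of senescent to non-senescent with its standard error, the deposited Wald score, and the deposited p-value and adjusted p-value. Values that hold the authors' own comparison were used because the tables used here hold no value per library; no model was refitted, and planned count tests could not be run. The deposited enhancer and Rb lists give positions only. Scaling by size factors hides any genome-wide rise or fall. The tables do not give library depth; the sum of the mean counts of all peaks was 19239499 for H3K27ac and 6136424 for CTCF.

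Peaks were joined to GENCODE 44 with Python 3.11.15 and pandas 2.3.3. Starts were read as counted from 0, because the narrowest H3K27ac peaks are then exactly 500 bp wide. The base of the count is not stated, and positions are printed from 1. All 24 chromosome names were those of hg38. Intervals are 95% (1.96 SE). The genes, lists and motifs were chosen with earlier results of these data known, and no list was tested as a set. A planned gene of the pathway list and a planned marker are not reported here. Named values were every start-site H3K27ac peak, every called peak, the strongest CTCF peak of each gene and pathway genes with called peaks (at most 6 named for peaks elsewhere); other peaks were named after their values were seen. Alternatives were recomputed from the deposited values, with Benjamini-Hochberg adjustment in scipy 1.17.1 and numpy 2.4.6. The Wald test, the test against a fold change and the GC correction were tried on simulated data. The simulated GC trend was linear over all peaks, and its recovery was checked only away from the extremes of GC. The GC trend was the median log2 fold change in 20 GC bins of peaks outside start sites and listed enhancers. Beyond the outermost bins it was held constant, and standard errors were left unchanged.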

Additional observations from a re-analysis of the deposited data

How the results depend on the processing

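No paired analysis was possible because the tables hold no values per library, and leaving out single replicates could not be fitted for the same reason. The H3K27ac count of 1 gained and 0 lost was the same with a fold change above 2, an adjusted p under 0.01, adjustment over all peaks, a 1 kb window, a reach of 50 kb, the nearest start among all genes and with the GC trend removed. It became 0 gained with a test against a fold change of 1.5 and with a mean of at least 50 counts, 3 gained and 3 lost on the adjusted p alone, and 2 lost with centring. CTCF stayed at 0 and 0 except for 2 lost on the adjusted p alone. Alternatives added after seeing the data combined the adjusted p alone with the GC trend removed (H3K27ac 4 gained and 2 lost, CTCF 0 and 0) or with centring (H3K27ac 2 gained and 4 lost, CTCF 2 lost), and carried all settings to the 26 pathway start sites. Those gave 0 gained and 0 lost with a fold change above 2 or a test against 1.5, 0 gained with centring, 8 gained and 2 lost on the adjusted p alone, 10 and 2 with the GC trend removed as well, and 4 and 3 with centring as well. Where the construction does not show why a count moved, the cause was not tested. Enhancer overlaps were the same when 50% of a peak had to lie inside. The sign turned in H3K27ac at the IRF1 and IRF2 canonical starts (0.19 and 0.039 with the GC trend removed) and at IRF2 2 (-0.0089 with it removed, -0.042 centred) and in CTCF at JAK1 6 (-0.12 and -0.027), JAK1 7 (-0.087 and -0.012), all within 0.03 of 0 as deposited, and in CTCF at SOCS1, from -0.25 to 0.036 with the GC trend removed. Precision limits what can be read: a CTCF peak under 20 counts had no adjusted p among these genes, and weak intronic H3K27ac peaks could hide a 1.5-fold change.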
